A study of Mus musculus with 12 samples.

Results

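The tumour suppressor p53, encoded by Trp53, was followed in mouse pancreatic tumour organoids together with 9 genes that act on it or that it switches on. The 10 genes were named as a set and found by symbol in the annotation, with no threshold on their values. They are 10 of 53715 gene identifiers and, after the filter on low counts described below, 9 of 14473 genes tested. They comprise Trp53, its upstream regulators Cdkn2a and Mdm2, and the target genes Cdkn1a, Ccng1, Phlda3, Eda2r, Zmat3, Sesn2 and Bax.

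p53 is a transcription factor that is held at a low level by the ubiquitin ligase MDM2. MDM2 is in turn a product of a p53 target gene, and the ARF protein of the Cdkn2a locus blocks it. DNA damage or oncogene activity stabilises p53, which then activates genes for cell cycle arrest (Cdkn1a), apoptosis (Bax, Eda2r), restraint of AKT and mTOR signalling (Phlda3, Sesn2) and feedback on p53 (Mdm2, Ccng1). In pancreatic ductal adenocarcinoma, CDKN2A and the gene for p53 are commonly inactivated.

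The organoids are epithelial cultures grown in Matrigel from tumours of KPC mice on a C57/Bl6 background. These mice carry a Cre-activated Trp53 allele (Trp53LSLR172H) and a Pdx1-Cre transgene, whose promoter acts in pancreatic progenitors and epithelium. In all 12 libraries the label writes the second Trp53 position as LOH, loss of heterozygosity. The names of the deposited tables mark only mT6 as LOH. All groups therefore share the mutant Trp53 allele as labelled, and no group is labelled wild type for p53. The 2 lines, mT6 and mT69a, were each sequenced under 3 conditions with 2 libraries per group. The controls were described as a clone with a Rosa26 knockout and an empty vector. The knockouts had Spdef, which encodes an ETS-family transcription factor of secretory epithelium, knocked out and the same empty vector. The last condition was the Spdef knockout with an SPDEF vector. Each group is labelled as a clone. No label states that its 2 libraries came from different cultures, and the tests therefore use a spread that may be technical. Knockout and control are labelled as different clones, so an effect of the knockout cannot be told apart from a difference between clones.

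Libraries held 9094295 to 28903831 expected counts (reads assigned to genes by a model, which need not be whole). Mouse Spdef had 30 and 29 counts in the mT6 controls and 0 to 4 counts in every other library, the SPDEF vector libraries included. In mT69a the controls had 2 and 4 counts and the knockouts 2 and 0. The SPDEF condition in both lines and the mT69a knockout therefore rest on their labels. Epithelial markers summed to between 3316 and 5664 CPM (counts scaled to library size) in every library. The duct markers Sox9, Cftr and Muc1 were above 0 in every library. Fibroblast, endothelial and acinar markers each summed to 1.07 CPM or less. Immune markers summed to 10.6 to 24.5 CPM, nearly all of it from Cd14 (7.14 to 14.4 CPM) and Cd68 (2.23 to 11.6 CPM), which were above 0 in all 12 libraries. Ptprc, the leukocyte marker CD45, had 7 counts in all, and Cd3e and Adgre1 had 0. The share of counts on mitochondrial genes ranged over the groups from 12.7% to 15.5% for number 1 libraries and from 18.6% to 27.1% for number 2 libraries. Median log2 differences by chromosome departed from 0 in several comparisons. In mT6 knockouts against controls they were -0.28 on chromosome 1, -0.37 on 14, -0.44 on 17 and -0.29 on 19. In mT69a they were -0.34 on chromosome 12 and -0.49 on 18. The chromosomes of Trp53 and Cdkn2a, 11 and 4, had medians of 0.07 and 0.08 in mT6. For the SPDEF vector against the knockout in mT6, chromosomes 1, 14, 17 and 19 had -0.03, -0.01, -0.05 and -0.04. In mT69a against mT6, chromosome 8 had -0.34 in controls, -0.36 in knockouts and -0.33 in vector libraries. Chromosome 12 had -0.01, -0.48 and -0.46 in the same order.

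Some reference sequence helps in reading the values, because it shows which products and sites the reads stand for. The Cdkn2a gene (ENSMUSG00000044303, chromosome 4, 89274471 to 89294653, minus strand, GRCm38) makes a pair of unrelated proteins from separate first exons. The ARF transcript starts upstream, and ARF blocks MDM2. The other transcript starts 12461 bases further downstream, counted between the first bases of the first exons, and encodes p16INK4a, which blocks CDK4 and CDK6. They share 320 coding bases, read in frames that are 2 bases apart. The first 60 coding bases of each, from GENCODE M21 with the start codon in capitals, lie on the minus strand at chr4:89294464-89294523 and chr4:89282052-89282111.
ARF transcript: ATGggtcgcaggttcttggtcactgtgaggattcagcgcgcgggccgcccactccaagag
p16INK4a transcript: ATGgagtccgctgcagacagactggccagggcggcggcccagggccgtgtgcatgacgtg

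Trp53 (ENSMUSG00000059552) lies on chromosome 11 at 69580359 to 69591873 on the plus strand. The labelled R172H allele changes codon 172, an arginine codon at chr11:69588511-69588513 in the coding exons. The reference coding bases around it, at chr11:69588481-69588543, are shown with the codon in capitals. The deposited values are sums per gene and per transcript and do not separate the mutant allele from another allele.
Trp53, around codon 172: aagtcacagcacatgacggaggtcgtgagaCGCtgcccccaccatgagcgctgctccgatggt

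RefSeq promoter windows (GRCm38.p6, 250 bases before to 50 after a transcript start) were found for 9 of the 10 genes, 11 windows in all, and not for Zmat3. Each was searched for the p53 consensus site of 20 bases, made of 2 abutting decamers that read alike on both strands, with at most 1 mismatch and no spacer. The site was in 2 of the 11 windows and in 29 of all 32851 windows (0.0883%). They were the Ccng1 window and the window of the upstream start of Cdkn1a. In Cdkn1a the first base of the site lay 51 bases before that start, at chr17:29090928-29090947. Its last base lay 2822 bases before the start of the transcript to which 98.5% of the Cdkn1a counts were assigned. A Cdkn1a transcript that begins at the upstream start had 0 counts in all 12 libraries. In Ccng1 the first base of the site lay 195 bases before the start, at chr11:40755462-40755481. The stretches before each gene's start are printed with the site in capitals, for Cdkn1a at chr17:29090729-29090975 (plus strand) and for Ccng1 at chr11:40755312-40755536 (minus strand). A match describes letters and not binding.
Cdkn1a, upstream start: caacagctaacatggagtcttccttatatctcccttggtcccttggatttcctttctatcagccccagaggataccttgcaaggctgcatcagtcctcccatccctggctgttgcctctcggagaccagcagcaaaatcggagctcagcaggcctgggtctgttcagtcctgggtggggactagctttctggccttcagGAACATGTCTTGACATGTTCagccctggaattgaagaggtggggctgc
Ccng1: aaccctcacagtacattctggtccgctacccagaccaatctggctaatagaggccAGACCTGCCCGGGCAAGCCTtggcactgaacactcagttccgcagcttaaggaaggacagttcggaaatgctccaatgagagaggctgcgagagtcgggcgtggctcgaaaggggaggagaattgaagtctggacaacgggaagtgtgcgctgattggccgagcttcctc

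Per transcript length, Cdkn2a was the member with the highest median level. In TPM, the abundance of transcripts scaled to their length and the library total, over the 12 libraries Cdkn2a ran from 43.1 to 81.7 with a median of 56.0. Bax followed at 25.7 to 49.7 with a median of 33.6. Trp53 ran from 13.5 to 46.6, with a median of 26.7. Ccng1, Mdm2 and Cdkn1a had medians of 17.9, 13.8 and 7.03 TPM, and Phlda3, Sesn2 and Zmat3 had medians of 3.09, 2.72 and 1.54 TPM. The ranges of neighbours in this order overlapped, apart from the lowest gene. Eda2r, a TNF-receptor family member, had 7 counts in all, was at 0 in 8 libraries and never passed 0.09 TPM. A count of 0 allows up to 3 counts, which is 0.107 to 0.352 CPM in these libraries, so Eda2r was not testable at this depth. The processed pseudogene Trp53-ps had 0 counts in all libraries.

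Library values below are CPM scaled by TMM (a correction for composition between libraries), with number 1 before number 2. Trp53 had 54.2 and 37.8 CPM in mT6 controls, 31.0 and 23.2 in mT6 knockouts, and 44.3 and 26.8 in mT6 with the SPDEF vector. The mT69a libraries had 50.9 and 33.8 in controls, 52.6 and 48.2 in knockouts, and 67.1 and 47.4 with the vector. The mT6 knockouts had the lowest mean, and in all 6 groups number 1 was above number 2. Of the Trp53 counts, 83.0% were assigned to the full-length form and 10.8% to a form that ends in an alternative C-terminus.

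Cdkn2a had 43.4 and 42.3 CPM in mT6 controls, 30.8 and 35.1 in knockouts and 36.5 and 31.3 with the vector. In mT69a it had 45.3 and 40.9, 45.4 and 44.0, and 41.5 and 42.3 in the same order. Cdkn2a was below 40.9 CPM in the 4 mT6 knockout and vector libraries and at or above it in the other 8. That cut was read from these same values. For this division, and for those of Mdm2, Cdkn1a, Ccng1 and Zmat3 below, the share of all genes that divide alike was not counted. The reads of Cdkn2a belonged almost entirely to the ARF transcript. The ARF transcript stood at 41.9 to 80.7 TPM and the p16INK4a transcript at 0.29 to 4.11 TPM, so the ranges were far apart in all 12 libraries. p16INK4a took 172 of the pooled counts against 7077 for ARF, or 2.37%. The share by library ran from 0.426% (exact 95% interval 0.0518% to 1.53%) in the number 2 mT69a SPDEF vector library to 5.96% (4.17% to 8.24%) in the number 1 mT6 control. Its range was 1.18% to 5.96% in mT6 and 0.426% to 2.96% in mT69a, and these overlapped. The reads were split between the transcripts by the authors' model, which places reads of the shared exons by estimate. Intervals here cover counting error only.

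**Figure D1:**
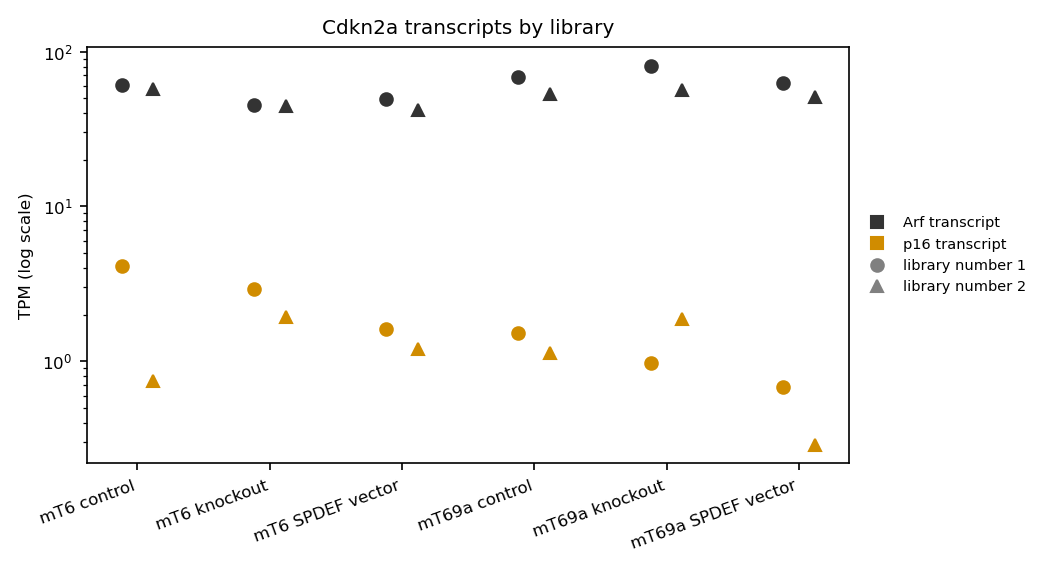
TPM of the ARF and p16INK4a transcripts of Cdkn2a on a log axis, in each of the 6 groups, with circles for library number 1 and triangles for number 2. In every library the ARF transcript (41.9 to 80.7 TPM) lay above the p16INK4a transcript (0.29 to 4.11 TPM).

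Mdm2 had 33.2 and 26.8 CPM in mT6 controls, 40.6 and 31.0 in knockouts and 40.7 and 32.6 with the vector. The mT69a values were 22.4 and 26.7 in controls, 26.2 and 25.9 in knockouts and 32.0 and 29.3 with the vector. The mT69a controls and knockouts lay below all mT6 libraries, and the mT69a vector libraries lay inside the mT6 range. The mT6 control numbered 2, at 26.8 CPM, was just above the highest of those mT69a libraries.

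Cdkn1a, whose product p21 inhibits cyclin-dependent kinases, was the member that varied most between libraries of a group. It had 31.1 and 6.14 CPM in mT6 controls, 42.2 and 12.6 in knockouts and 25.9 and 5.75 with the vector. In mT69a it had 10.6 and 9.97, 12.3 and 5.13, and 10.5 and 5.23 CPM. The 3 mT6 libraries numbered 1 stood above every other library, while the mT6 libraries numbered 2 lay among or near the mT69a values. Ccng1, which encodes cyclin G1, a partner of a phosphatase that acts on MDM2, was steadier. It had 52.2 and 49.7 CPM, 58.9 and 57.5, and 47.1 and 57.3 in mT6 controls, knockouts and vector libraries. In mT69a these were 67.6 and 66.6, 69.99 and 69.2, and 55.2 and 60.5. Its mT69a controls and knockouts were above all mT6 libraries, and of the mT69a vector libraries 1 was not.

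Phlda3, which encodes a competitor of AKT for membrane lipids, had 3.05 and 2.75 CPM in mT6 controls, 2.57 and 1.77 in knockouts and 3.04 and 2.0 with the vector. The mT69a libraries had 8.0 and 5.19, 7.04 and 7.05, and 6.88 and 5.05 CPM. The lowest mT69a library was above the highest mT6 library. Of the 9 members tested, only Phlda3 separated the lines in this way, as did 17.3% of all genes tested. Sesn2, a stress-induced inhibitor of mTORC1, had 8.23 and 4.86 CPM, 12.3 and 5.90, and 7.48 and 2.93 in mT6, and 16.6 and 9.97, 16.8 and 7.74, and 11.3 and 9.92 in mT69a. Sesn2 was higher in number 1 than in number 2 in every group, and its lines overlapped.

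Zmat3, which encodes a zinc finger RNA-binding protein, had 8.61 and 7.07 CPM in mT6 controls, 9.46 and 7.72 in knockouts and 12 and 11.7 with the vector. In mT69a it had 14.2 and 10.8, 10.5 and 14.1, and 13.2 and 11.8. The mT6 vector libraries reached the mT69a range and the other mT6 libraries lay below it. Bax, which permeabilises the mitochondrial outer membrane in apoptosis, had 23.1 and 18.5, 21.9 and 20.7, and 24.1 and 23.5 CPM in mT6. In mT69a it had 27.1 and 22.2, 26.8 and 24.5, and 30.5 and 25.1. Its highest and lowest libraries differed by 1.65-fold, against 8.22-fold for Cdkn1a.

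**Figure D2:**
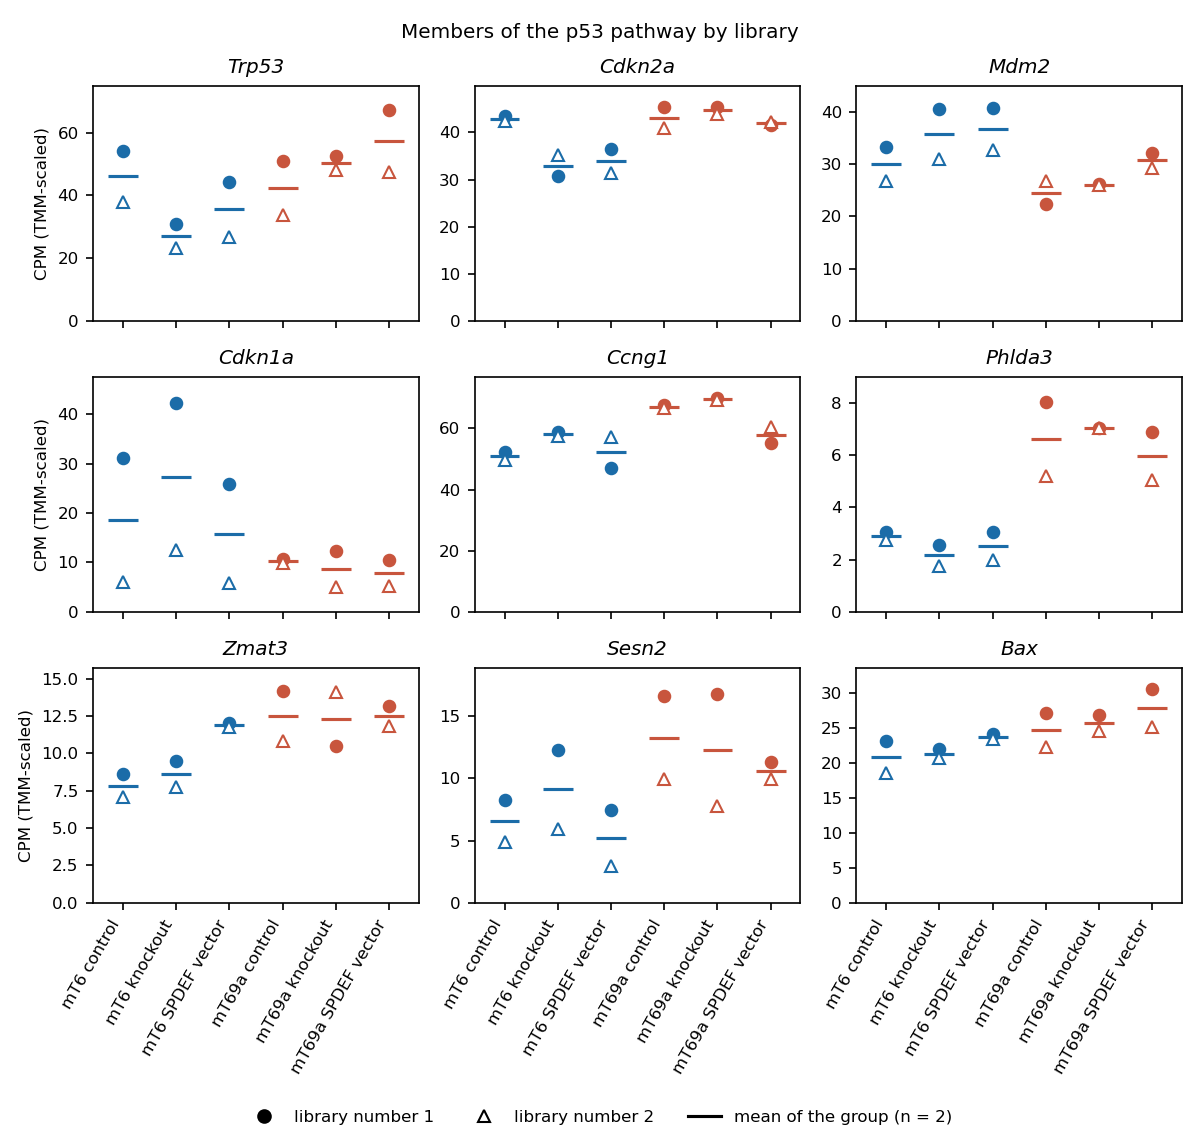
TMM-scaled CPM of the 9 members that passed the count filter, by group, with mT6 in blue and mT69a in red, a circle for library number 1, an open triangle for number 2 and a bar for their mean. The lines do not overlap for Phlda3, and the mT6 libraries numbered 1 stand apart for Cdkn1a (25.9 to 42.2 CPM).

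The lines were compared first as the average of the 3 conditions, mT69a against mT6. In that comparison the duct markers Sox9, Cftr and Muc1 were each lower in mT69a in edgeR's test, and their part in the members' values was not tested. With edgeR's quasi-likelihood test and Benjamini-Hochberg adjustment over all genes, 6 of the 9 members were higher in mT69a and 1 was lower. Of all genes, 45.2% passed in this comparison, 22.5% higher and 22.7% lower. Phlda3 was higher by 1.39 ± 0.18 on the log2 scale (standard error, adjusted p = 0.00017), a 2.62-fold difference. Its call was kept in all 12 fits that left out a single library. The median difference on chromosome 1, where Phlda3 lies (135766119 to 135769136), was -0.14. By condition it was -0.35 in controls, -0.09 in knockouts and -0.01 in vector libraries. The part of this shift in the Phlda3 difference was not tested. In bulk RNA, fewer cells that express a gene and less RNA per cell cannot be told apart.

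Among the other regulators and targets the differences were smaller. Ccng1 was higher by 0.27 ± 0.07 (edgeR adjusted p = 0.00951), Zmat3 by 0.43 ± 0.12 (0.0143) and Cdkn2a by 0.25 ± 0.07 (0.0147). These 3 calls were kept whichever single library was left out. In the controls alone the Cdkn2a difference of the lines was 0.06 within number 1 and -0.05 within number 2, on the log2 scale. Mdm2 was lower by 0.33 on the log2 scale in mT69a (estimate -0.33 ± 0.10, edgeR adjusted p = 0.0235). Trp53 was higher by 0.49 ± 0.17 (0.0412) and Sesn2 by 0.85 ± 0.31 (0.0491). These last calls were each kept in 5 of the 12 fits without a library. The highest adjusted p was 0.121 for Trp53 and 0.134 for Sesn2, both without the number 1 mT69a control, and 0.0787 for Mdm2 without the number 2 mT69a vector library.

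Bax (0.25 ± 0.09, edgeR adjusted p = 0.0508) and Cdkn1a (-1.14 ± 0.56, 0.132) did not pass between the lines. Same-numbered libraries deviated together across groups, and a fit with the replicate number as a block called both, with adjusted p = 0.00933 for Bax and 0.0431 for Cdkn1a (-0.96 ± 0.32). All 9 members passed in that fit, as did 56.2% of all genes. Within number 1 the Cdkn1a difference was -1.50 and within number 2 it was -0.23 on the log2 scale. In the controls alone the sign was not the same, with -1.51 within number 1 and 0.66 within number 2. The median on chromosome 17, where Cdkn1a lies (29090976 to 29100727), was -0.11 between the lines on average. By condition it was -0.43 in controls, 0.04 in knockouts and 0.09 in vector libraries. The part of this shift in the Cdkn1a difference was not tested. With limma on log2(TPM + 1), 1 of the 9, Phlda3, passed.

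In single conditions, 3 members passed in the controls, 2 in the knockouts and 1 with the vector, against 28.2%, 25.3% and 17.8% of all genes. Phlda3 passed in each, by 1.19 ± 0.30, 1.72 ± 0.32 and 1.25 ± 0.33 (edgeR adjusted p = 0.0147, 0.00353 and 0.0248). Ccng1 (0.40 ± 0.12, 0.0306) and Zmat3 (0.68 ± 0.20, 0.0302) were higher in mT69a controls. Cdkn2a was higher in mT69a knockouts (0.44 ± 0.12, 0.0255). In fits without a library the calls were kept in 8 of 12 for Ccng1 (highest adjusted p = 0.146, without the number 2 mT6 control) and in 10 of 12 for Zmat3 (0.232, without the number 1 mT69a control). Cdkn2a was kept in 8 of 12 (0.155, without the number 1 mT6 knockout). Phlda3 was kept in 10 of 12 in controls (0.143, without the number 1 mT69a control), 12 of 12 in knockouts and 10 of 12 in vector libraries (0.182, without the number 1 mT69a vector library).

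Trp53 did not differ detectably between the controls of the lines (-0.12 ± 0.30, 95% interval -0.84 to 0.61, edgeR adjusted p = 0.811). In the knockouts the Trp53 difference was 0.90 ± 0.30 (0.0536). With the replicate block it passed there (0.91 ± 0.13, adjusted p = 0.000145) and in the vector libraries (0.70 ± 0.13, 0.00136). The block also called Sesn2 in controls (1.02 ± 0.21, 0.00217) and vector libraries (1.09 ± 0.25, 0.00521), and Zmat3 (0.52 ± 0.19, 0.043) and Mdm2 (-0.45 ± 0.15, 0.0283) in knockouts. With the block 4, 5 and 3 members passed in controls, knockouts and vector libraries, and 41.8%, 39.2% and 30.3% of all genes.

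**Figure D3:**
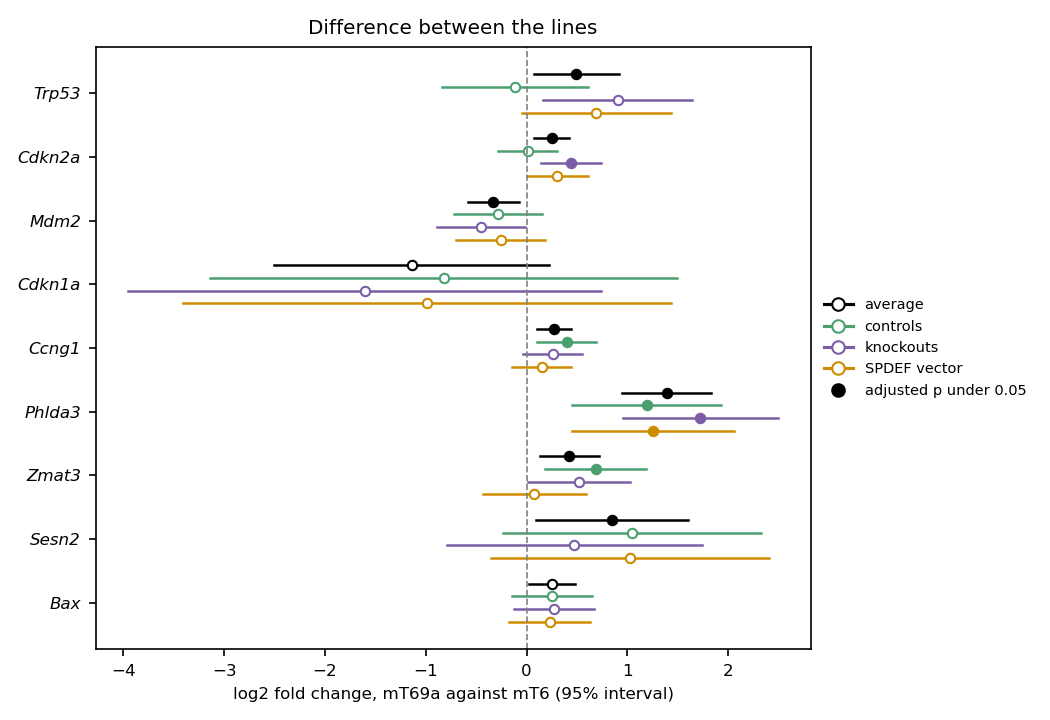
Log2 fold change of each member, mT69a against mT6, from the edgeR fit with 95% intervals, for the average and for each condition, with filled points where the adjusted p was under 0.05. Phlda3 is filled in all 4 rows and lies furthest to the right (1.39 on average).

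Genes most like Phlda3 over the 12 libraries were sought by the root mean square difference of centred log2 CPM among 10966 protein-coding genes. Shmt2, a mitochondrial serine hydroxymethyltransferase, was closest at 0.18, followed by Nfatc1 at 0.20 and Bend3 at 0.20. The spread of Phlda3 itself by the same measure was 0.74.

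The knockout of Spdef was compared with the control in each line. With edgeR's quasi-likelihood test 0 of the 9 members passed in mT6, in mT69a, on average or in the difference between the lines, while 3.23%, 8.60%, 5.60% and 6.62% of all genes did. DESeq2 also called 0 of them in each. Before adjustment, 2 members in mT6, 0 in mT69a, 0 on average and 2 in the difference had p under 0.05. The shares of all genes above are by adjusted p and give no background for these unadjusted counts. The 2 in mT6 were Trp53 and Cdkn2a. Both knockout libraries were below both controls for each of these genes, which were picked by those p-values. The share of all genes with 2 libraries apart from 2 others was not counted.

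In mT6 the Trp53 level was 46.0 ± 11.6 CPM in controls and 27.1 ± 5.47 in knockouts (mean ± SD, n = 2 each). The log2 difference was -0.77 ± 0.30 (edgeR adjusted p = 0.226), and within numbers 1 and 2 it was -0.80 and -0.69. With the replicate block the difference was -0.75 ± 0.13 and passed (adjusted p = 0.00229). For Cdkn2a it was -0.38 ± 0.12 (0.137), and -0.37 ± 0.11 with the block (0.0423). In the block fit 12.5% of all genes passed.

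In mT69a the Trp53 difference of knockout and control was 0.25 ± 0.30 (95% interval -0.47 to 0.98, edgeR adjusted p = 0.751), and that of Cdkn2a was 0.05 ± 0.12 (-0.25 to 0.35, 0.898). The difference between the lines in this comparison was 1.02 ± 0.42 for Trp53 (0.216). It passed with the block (1.03 ± 0.18, adjusted p = 0.00181). In that fit 15.2% of all genes passed in the difference.

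The target genes gave wide intervals. Cdkn1a differed by 0.57 ± 0.92 in mT6 knockouts against controls, with a 95% interval of -1.69 to 2.83, and the groups overlapped. Mdm2 differed by 0.25 ± 0.18 (-0.18 to 0.69) and Bax by 0.04 ± 0.16 (-0.36 to 0.43). For Phlda3 the difference was -0.44 ± 0.32 (-1.23 to 0.35), beside the chromosome 1 median of -0.28, and for Sesn2 it was 0.48 ± 0.53 (-0.82 to 1.77). In mT69a all 9 estimates lay between -0.21 and 0.28 in both fits apart from Cdkn1a with the block (-0.45 ± 0.57).

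The SPDEF vector was compared with the knockout, 0 of 9 members passing in mT6, in mT69a, on average or in the difference of the lines. Of all genes 2.69%, 4.25%, 7.77% and 0.0138% passed. DESeq2 called 0 members in each, and 1, 1, 1 and 0 had an unadjusted p under 0.05 in edgeR. Those unadjusted counts have no share of all genes beside them, since the shares given are by adjusted p. Trp53 differed by 0.40 ± 0.31 in mT6 (95% interval -0.35 to 1.14) and by 0.19 ± 0.30 in mT69a (-0.54 to 0.91). Zmat3 in mT6 differed by 0.48 ± 0.21 (edgeR adjusted p = 0.386), and both vector libraries were above both knockouts. Ccng1 differed by -0.27 ± 0.12 in mT69a (0.327), with both vector libraries below both knockouts. For neither gene was the share of all genes that separate in this way counted.

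Against the control, vector libraries also had 0 of 9 members past the threshold in mT6, in mT69a and on average, while 8.60%, 12.4% and 14.5% of all genes passed in edgeR. DESeq2 called 0, and 2, 0 and 1 members had an edgeR p under 0.05 before adjustment. Here too the shares of all genes are by adjusted p and give no background for the unadjusted counts. This comparison shares its controls with the knockout comparison. The vector libraries also carry the knockout, so it includes the step from control to knockout clone. The replicate block called 1 member in each, out of 19.0%, 22.5% and 25.4% of all genes. These were Zmat3 in mT6 (0.61 ± 0.19, adjusted p = 0.0424), Trp53 in mT69a (0.44 ± 0.13, 0.0225) and Mdm2 on average (0.30 ± 0.10, 0.0495). Without the block their adjusted p were 0.111, 0.438 and 0.143.

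**Figure D4:**
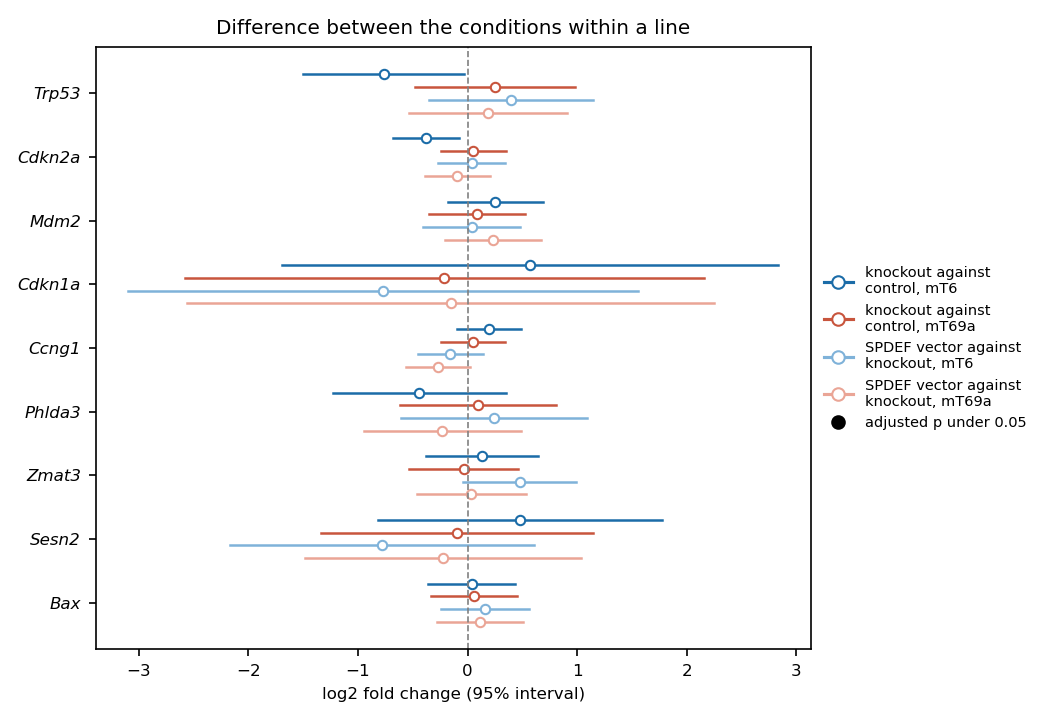
Log2 fold change of each member in the knockout against the control and in the SPDEF vector against the knockout, by line, from the edgeR fit with 95% intervals. All points are open because no member passed, and the mT6 knockout interval lies below 0 for Trp53 (-1.50 to -0.03) and Cdkn2a (-0.68 to -0.08).

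Some members differed with the number of the library. The block term, read as a result after these values had been seen, called 3 of the 9 members lower in number 2 and 0 higher. Of all genes 26.0% passed, and 13.5% of all genes were lower in number 2. Cdkn1a was higher in number 1 in 6 of 6 groups, by 1.07-fold to 5.07-fold, with a fitted fold of 2.76 (edgeR adjusted p = 0.0234). Sesn2 was higher by 1.14-fold to 2.55-fold (fitted 1.77, 0.00163) and Trp53 by 1.09-fold to 1.65-fold (fitted 1.39, 0.00154), both in 6 of 6 groups. Bax was also higher in number 1 in 6 of 6 groups, by 1.03-fold to 1.25-fold, and did not pass (0.0585). Cdkn2a, Mdm2, Ccng1, Phlda3 and Zmat3 did not pass either (adjusted p from 0.0615 for Phlda3 to 0.71 for Cdkn2a).

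Other p53 targets were counted in the same way. Of 46 measured members of a list of 50 such genes, 14 were higher in number 1, 3 were higher in number 2 and 29 did not pass, beside 26.0% of all genes that passed and 13.5% that were lower in number 2. The median difference of number 2 from number 1 was -0.13 against -0.02 over all genes. The smallest adjusted p belonged to Bcl2l1, an anti-apoptotic gene (1.23-fold higher in number 1, edgeR adjusted p = 0.00327), Gpx1, a glutathione peroxidase (1.22-fold, 0.00335), and Ddit4, an mTORC1 inhibitor (1.97-fold, 0.00589). Plk2 (2.34-fold, 0.0149), Gdf15 (2.27-fold, 0.0338) and Lif (2.66-fold, 0.0163) were chosen for mention after their values were seen. What the number marks is not stated in the labels, and the mitochondrial share given above moved with it. Its part in these differences was not tested.

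**Figure D5:**
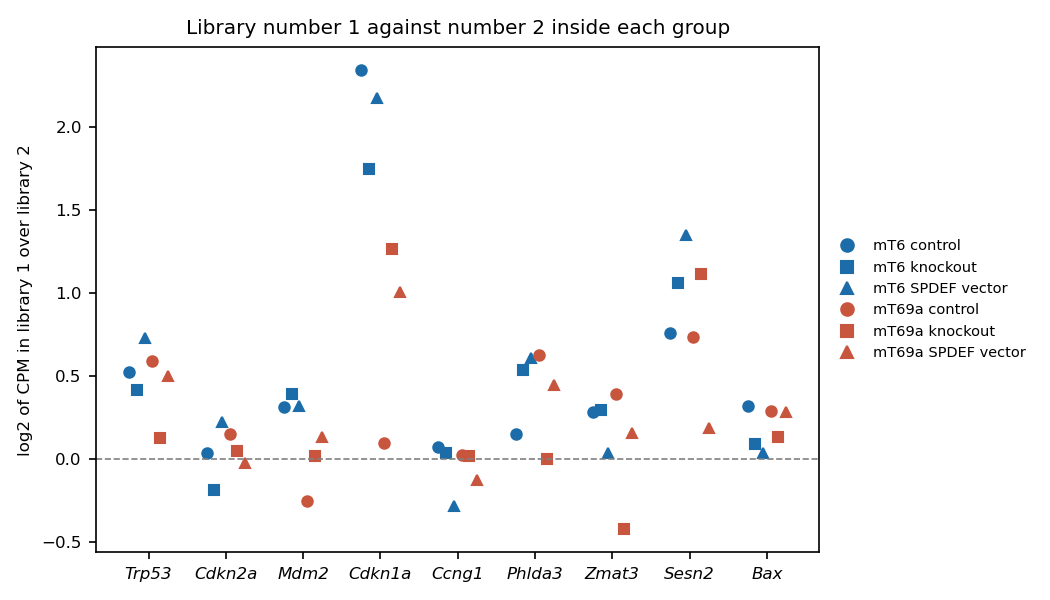
Log2 ratio of TMM-scaled CPM in library number 1 over number 2 inside each of the 6 groups, with mT6 in blue and mT69a in red, and circles, squares and triangles for control, knockout and SPDEF vector. All 6 points lie above 0 for Trp53, Cdkn1a, Sesn2 and Bax, and Cdkn1a reaches a ratio of 5.07 in mT6 controls.

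The remaining p53 pathway genes were counted from lists, with up to 3 named per comparison by smallest adjusted p. Among 46 other reported targets, 17 were higher and 11 lower in mT69a on average, with a median of 0.10 against -0.03 over all genes, and 45.2% of all genes passed. With the replicate block 19 were higher and 14 lower, and 56.2% of all genes passed. Dcxr, a carbonyl reductase, was lower in mT69a (-2.34 ± 0.08, edgeR adjusted p = 2.13e-08), and Slc19a2, a thiamine transporter, was higher (1.88 ± 0.09, 1.31e-07). Tnfrsf10b, the mouse TRAIL receptor, was higher on average by 0.89 ± 0.08 (9.82e-06). Its mT69a controls lay inside the range of its mT6 controls, while its knockouts lay apart, with values given below. Among regulators, 5 of 14 were higher and 2 lower in mT69a, and 5 and 3 with the replicate block. Rb1, the retinoblastoma gene, was higher by 0.90 ± 0.11 (0.000127), and the damage kinase gene Atm by 0.80 ± 0.11 (0.000259). The Rb1 difference of knockout and control was not the same in the lines, with values given below. Its average therefore need not hold in each condition. Cop1, a ubiquitin ligase gene, was higher on average by 0.47 ± 0.07 (0.000335). Its mT69a controls lay below its mT6 controls, and its mT6 knockouts lay below both, with values given below.

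Of 6 further CDK inhibitor genes, 3 were higher and 2 lower in mT69a, where 22.5% and 22.7% of all genes were. Cdkn1b, which encodes p27, stood at 61.0 to 64.0 CPM in mT6 and 29.8 to 41.5 in mT69a (-0.83 ± 0.06, edgeR adjusted p = 3.8e-06). Cdkn1c, which encodes p57, was lower by -2.28 ± 0.21 (1.7e-05), and Cdkn3, a CDK-associated phosphatase gene, was higher by 0.66 ± 0.11 (0.000574). Next to Cdkn2a, Cdkn2b (p15) was higher in mT69a by 0.60 ± 0.17 (0.018), the only 1 of 5 measured neighbours to pass. Beside Trp53, 1 of 12 was higher and 1 lower. The share of all genes that passed was 45.2%. With the replicate block, where 56.2% of all genes passed, 1 of the 5 neighbours of Cdkn2a was higher and 1 lower. Of the 12 beside Trp53, 1 was higher and 2 lower in that fit. Wrap53, which lies next to Trp53 on the other strand, was higher by 0.30 ± 0.11 (0.0496), a call kept in 2 of 12 fits without a library.

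In knockouts against controls, on average over the lines, 1 of 46 other targets rose and 1 fell, against 5.60% of all genes. With the replicate block 4 rose and 1 fell, and more of all genes passed too. Dcxr rose by 0.82 ± 0.09 (edgeR adjusted p = 0.000754) and Slc19a2 fell (-0.72 ± 0.10, 0.00225). Dcxr had 28.6 and 29.7 CPM in mT6 controls, 61.0 and 61.8 in knockouts and 37.0 and 31.9 with the vector, and the mT6 vector libraries lay between the other groups. In mT69a it had 5.88 and 6.87, 9.46 and 9.39, and 7.71 and 8.21 CPM. There the call for knockout against control (0.57 ± 0.14, adjusted p = 0.0324) was kept in 2 of 12 fits without a library (highest 0.181, without the number 1 mT69a control), and the vector against the knockout did not pass (-0.25 ± 0.14, 0.471). In the vector against the knockout, Dcxr fell (-0.54 ± 0.09, 0.00612), as did Apaf1, the apoptosome scaffold gene (-0.91 ± 0.15, 0.00458). Those were the 2 of 46 to pass there without the block, against 7.77% of all genes. With the block 3 of the 46 rose and 6 fell, and more of all genes passed too. Against the control, 4 rose and 3 fell, beside 14.5% of all genes that passed, with Ptp4a3, a phosphatase gene, rising by 1.19 ± 0.18 (0.00145). With the block 7 rose and 5 fell there, beside 25.4% of all genes.

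Of the 14 regulators, 0 rose and 2 fell in knockouts on average, against 5.60% of all genes called. With the replicate block 0 rose and 3 fell, and more of all genes passed too. Cop1 fell by -0.66 ± 0.08 (edgeR adjusted p = 0.00113), from 73.6 and 66.6 CPM in mT6 controls to 30.3 and 30.8 in mT6 knockouts. In mT69a it had 58.1 and 54.3 CPM in controls and 54.6 and 48.4 in knockouts. Cop1 and Slc19a2 lie on chromosome 1, where the median in mT6 knockouts was -0.28, and the part of that shift in these values was not tested. Rb1 fell in mT69a, from 33.1 and 44.7 CPM to 17.6 and 16.1 (-1.21 ± 0.19, 0.00319). Its average over the lines (-0.54 ± 0.14, 0.0489) was kept in 3 of 12 fits without a library (highest adjusted p = 0.162, without the number 2 mT69a control). The chromosome 14 median, where Rb1 lies, was 0.08 in mT69a. With the vector against the control, where 14.5% of all genes passed, 4 of 14 were lower. With the replicate block 1 was higher and 5 were lower there, beside 25.4% of all genes. The vector libraries also carry the knockout. In the vector against the knockout on average, 0 of the 14 passed, beside 7.77% of all genes. The 4 lower against the control were Cop1 (-0.77 ± 0.08, 0.000198), Mdm4, the p53-binding partner of MDM2 (-0.45 ± 0.11, 0.0198), Bmi1 and Rb1. In fits without a library the call was kept in 8 of 12 for Mdm4 and 3 of 12 for Rb1 (highest adjusted p = 0.088 and 0.164, without the number 1 mT69a vector library). For Bmi1 it was kept in 2 of 12 (0.14, without the number 1 mT69a control).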

How the data were processed

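Strand-specific total RNA libraries were made with a TruSeq kit, per the labels' protocols. The submitters' processing notes name FastQC 0.11.8, STAR 2.5.2b, RSEM 1.3.0 and GRCm38.p6. The authors deposited expected counts and TPM per gene and transcript, and the percent of a gene's abundance per transcript. Identifiers were matched to GENCODE M21 (53620 of 53715, ignoring version). Expected counts, of which 8.08% to 11.3% were not whole within 0.005, were rounded. Genes passing filterByExpr (14473) were fitted with edgeR 4.0.16 (TMM factors 0.839 to 1.20, robust quasi-likelihood, 6 group means, 6 degrees of freedom left, BCV 19.2%). All 15 comparisons are contrasts of that fit, two-sided, with Benjamini-Hochberg adjustment over all genes and a threshold of 0.05. The code was tested on simulated data. Same-numbered libraries deviated together in 15 of 15 pairs of groups (r from 0.231 to 0.662 over 12419 genes). The number, whose meaning is not labelled, was therefore taken as pairing them. A fit with the number as a block is given where it changes a call of a member. Counts and tests of list genes are from the fit without the block unless stated.

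The alternatives were DESeq2 1.42.0 and its size factors, no filter, the replicate block, limma 3.58.1 on log2(TPM + 1) and log2(TPM + 0.1), mitochondrial genes left out, and each library left out in turn. All 10 members are described, and from each list up to 3 genes per comparison by smallest adjusted p whose mean reached 1 CPM. The members and lists were chosen with earlier results of these data known. Other software was matplotlib 3.10.9, scipy 1.17.1, pandas 2.3.3 and numpy 2.4.6 under Python 3.11.15, and R 4.3.3. A further labelled allele, shared by all groups, is not reported here.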

Additional observations from a re-analysis of the deposited data

Results flagged for a closer look

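For 6 genes of the lists, none of them a member, the difference of knockout and control was not the same in the lines by edgeR's test (mT69a minus mT6). In this comparison 6.62% of all genes passed. Of 14 regulators 1 was higher and 1 lower, and of 46 other targets 2 were higher and 1 lower. Of 5 neighbours of Cdkn2a 1 was higher, and of 6 CDK inhibitors and 12 neighbours of Trp53 0 passed. Knockout and clone cannot be told apart in these values. Hacd4, a neighbour of Cdkn2a that encodes a fatty acid elongation enzyme, differed by 4.07 ± 0.72 (adjusted p = 0.00807), with 0.25 and 0.88 CPM in mT69a controls and 6.34 and 5.39 in knockouts. Tnfrsf10b differed by 1.34 ± 0.18 (0.00206), from 23.4 and 21 to 12.6 and 13.5 CPM in mT6 and from 22.6 and 22.8 to 31.3 and 36.4 in mT69a, beside a chromosome 14 median of -0.37 in mT6 and 0.08 in mT69a. Cop1 differed by 1.07 ± 0.17 (0.00413) and Rb1 by -1.34 ± 0.27 (0.0158), in the directions given above. Trp53inp1, a p53-induced stress gene, differed by -2.24 ± 0.51 (0.0302), and Pml, a nuclear body gene, by 1.10 ± 0.28 (0.0424). Hacd4, Tnfrsf10b and Cop1 passed in all 12 fits without a library. Rb1 passed in 8, Trp53inp1 in 5 and Pml in 3, with highest adjusted p of 0.0656 without the number 2 mT69a knockout, 0.111 without the number 2 mT69a control and 0.151 without the number 1 mT69a knockout.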

How the results depend on the processing

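Fold changes of the 9 members kept their direction wherever a call was made. DESeq2's size factors changed 0 of 135 calls, DESeq2 and leaving out mitochondrial genes 1 each, no filter 15, the replicate block 14, and limma on log2(TPM + 1), log2(TPM + 0.1) and log2(TPM + 1) without a filter 11, 11 and 12, all losses for limma. Members called between the lines numbered 7 on average, 3 in controls, 2 in knockouts and 1 in SPDEF vector libraries. By limma these were 1, 0, 1 and 0 with either pseudocount and 1, 0, 0 and 0 without a filter. Without a filter in edgeR, vector libraries had 4 between the lines. Counts of 0 became 1 for the knockout against the control in mT6 and in the difference of the lines, and for the vector against the knockout in mT6 and on average. With the replicate block, knockouts had 5 and vector libraries 3 between the lines. The block called 2 members in the knockout against the control in mT6 and 1 in the difference of the lines, and 1 each in the vector against the control in mT6, in mT69a and on average. It changed no other call of a member beyond those given above. Leaving out single libraries gave 4 to 8 members between the lines on average, 0 to 3 in controls, 1 to 3 in knockouts, 0 to 1 in vector libraries and 0 in every comparison of conditions. The cause of these changes was not tested.

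Counts over all genes moved by more than 1.5 times with the block in 13 of 15 comparisons, with limma in 14 or 15, without a filter in 8 and with DESeq2 in 1. Genes called in the knockout against the control numbered 468 in mT6, 1244 in mT69a, 810 on average and 958 in the difference. With the block they were 1809, 2320, 2171 and 2206, without a filter 1089, 1813, 1555 and 1577, and with limma on log2(TPM + 1) 114, 485, 321 and 319. For the vector against the knockout they were 389, 615, 1125 and 2. With the block they were 1055, 1533, 2293 and 55, without a filter 950, 1175, 1740 and 196, with limma 165, 246, 493 and 3, and in the difference 44 with DESeq2. For the vector against the control they were 1245, 1791 and 2092, with the block 2750, 3252 and 3677, with limma 410, 672 and 861, and without a filter in mT6 1887. Between the lines they were 4078 in controls, 3659 in knockouts, 2572 in vector libraries and 6544 on average. With limma they were 1465, 1257, 907 and 3764, and with the block 6052, 5680 and 4383 in the 3 conditions.

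With 2 libraries per group, a single library can end a call, and levels near the floor, such as Eda2r, allow no comparison. Phlda3, Zmat3 and Sesn2 had under 20 CPM in every library, and Cdkn1a had the widest intervals.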
